A study of Mus musculus with 4 samples.

Results

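The genes described here are 9 interferon-related genes of ubiquitin and ubiquitin-like conjugation, out of 21887 protein-coding genes: Rbck1, Nub1, Herc6, Trim26, Trim21, Trim25, Isg15, Uba7 and Usp18. They were chosen by their pathway, with the positions and summit scores of the IRF2 peaks nearest to them already known, so those peak values are given as a description without a test. The measurements come from chromatin immunoprecipitation and sequencing (ChIP-seq) of Lgr5-positive stem cells from the small intestine of mice of the strain Lgr5-EGFP-Ires-CreERT2, in which a reporter and an inducible recombinase stand at the Lgr5 locus. All samples carried that cassette, and the labels give no age, treatment or wild-type comparison. The design text names 5 mice without saying how they were divided over the 4 samples, which are 2 immunoprecipitates with the anti-IRF2 antibody ab124744 and 2 input controls without antibody. The inputs were not analysed here. The immunoprecipitate with Takara in its title is called replicate 1 and that with Tokyo in its title replicate 2. No source used here says that they came from separate animals, and no RNA was measured, so the cell type was not checked against marker expression.

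IRF2 is an interferon regulatory factor, a DNA-binding protein that recognises GAAA repeats in promoters of interferon-inducible genes and is best known as a repressor that competes with IRF1 at such elements. Ubiquitin and its relatives are small proteins that an activating enzyme (E1), a conjugating enzyme (E2) and a ligase (E3) attach to target proteins, and that proteases remove. ISG15 is an interferon-induced ubiquitin-like protein with its own E1, Uba7, a ligase, Herc6 in the mouse, and a removing protease, Usp18. Linear ubiquitin chains are made by a complex of Rnf31 (HOIP), Rbck1 (HOIL-1) and Sharpin and take part in inflammatory signalling. NEDD8 modifies cullin ligases, and Nub1 lowers its levels. Most TRIM proteins are RING-type ligases, and many are antiviral.

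IRF2 peaks lay at the linear ubiquitin gene Rbck1 and the NEDD8 regulator Nub1 in both libraries. The ligase genes Herc6 and Trim26 had a peak in the replicate 1 list but not in that of replicate 2. The ISG15 genes Isg15, Uba7 and Usp18 and the ligase genes Trim21 and Trim25 had no peak within 5000 bp of either gene end in either library. Matches to the IRF binding consensus were found in promoters of both kinds, with and without a peak.

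The consensus sites of 5 promoters are printed to show both cases. The consensus searched was GAAANNGAA on both strands, with overlapping matches joined into a site. The windows searched run from 250 bases before to 50 after each annotated RefSeq start of GRCm38.p6, and positions count from the start as base 0. Each line shows at most 30 bases 5′ to 3′ on the strand that reads GAAA, with the matching bases in capitals. The first pair lies inside IRF2 peaks, and the last 3 lie outside any peak.

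Rbck1, chr2:152332426-152332455, plus strand: tccccggaagaGAAAGTGAAagtggcagtc
Trim26, chr17:36836980-36837009, minus strand: gggcccgaGAAAAGGAAAGTGAAatcggaa
Isg15, chr4:156200871-156200900, minus strand: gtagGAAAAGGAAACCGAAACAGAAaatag
Trim21, chr7:102565447-102565476, minus strand: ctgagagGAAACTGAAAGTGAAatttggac
Trim25, chr11:88999384-88999413, minus strand: aggaaggaatcGAAACTGAAcaggaggggc

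The Isg15 site holds 3 matches and the Trim26 and Trim21 sites hold 2 each, all repeated every 6 bases. Rbck1 and Trim25 each have a single match. The sequence before the Trim26 start is shown as the case in which a peak of replicate 1 covers a repeated site. That before Isg15 is shown as the case of more repeats without a peak, and that before Herc6 as the case of a peak whose searched window holds no match. The summit of the Herc6 peak lies beyond that window, inside the gene. All 3 read 5′ to 3′ in the direction of transcription and stop before the gene, with sites in capitals. The Trim26 site reads as its complement here.

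Trim26, chr17:36836896-36837122, plus strand: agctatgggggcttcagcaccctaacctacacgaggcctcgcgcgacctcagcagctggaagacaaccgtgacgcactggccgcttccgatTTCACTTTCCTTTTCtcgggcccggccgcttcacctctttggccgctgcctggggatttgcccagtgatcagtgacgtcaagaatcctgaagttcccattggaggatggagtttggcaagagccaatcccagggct
Isg15, chr4:156200819-156201068, minus strand: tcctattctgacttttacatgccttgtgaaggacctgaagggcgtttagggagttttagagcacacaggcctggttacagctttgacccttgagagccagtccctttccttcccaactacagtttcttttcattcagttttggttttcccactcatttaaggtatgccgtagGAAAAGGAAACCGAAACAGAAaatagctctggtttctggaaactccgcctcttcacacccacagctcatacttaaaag
Herc6, chr6:57580742-57580991, plus strand: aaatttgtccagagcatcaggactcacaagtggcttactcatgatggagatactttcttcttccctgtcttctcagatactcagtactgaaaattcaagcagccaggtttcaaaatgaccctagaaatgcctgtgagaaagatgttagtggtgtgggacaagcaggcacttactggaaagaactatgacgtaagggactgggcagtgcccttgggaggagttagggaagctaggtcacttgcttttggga

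In replicate 1, whose deposited list holds 380 peaks, 4 of the 9 genes had a peak midpoint within 5000 bp of an end, against 0.795% of all protein-coding genes. In replicate 2, with 238 peaks, 2 of 9 had one, against 0.804% of all genes. Both of those genes lay at a region in which peaks of the libraries overlapped, against 0.164% of all genes. The genes were chosen with these peaks in view, so the shares say nothing about the pathway. Read depth is unknown, and a gene without a peak is a gene where none was called.

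**Figure D1:**
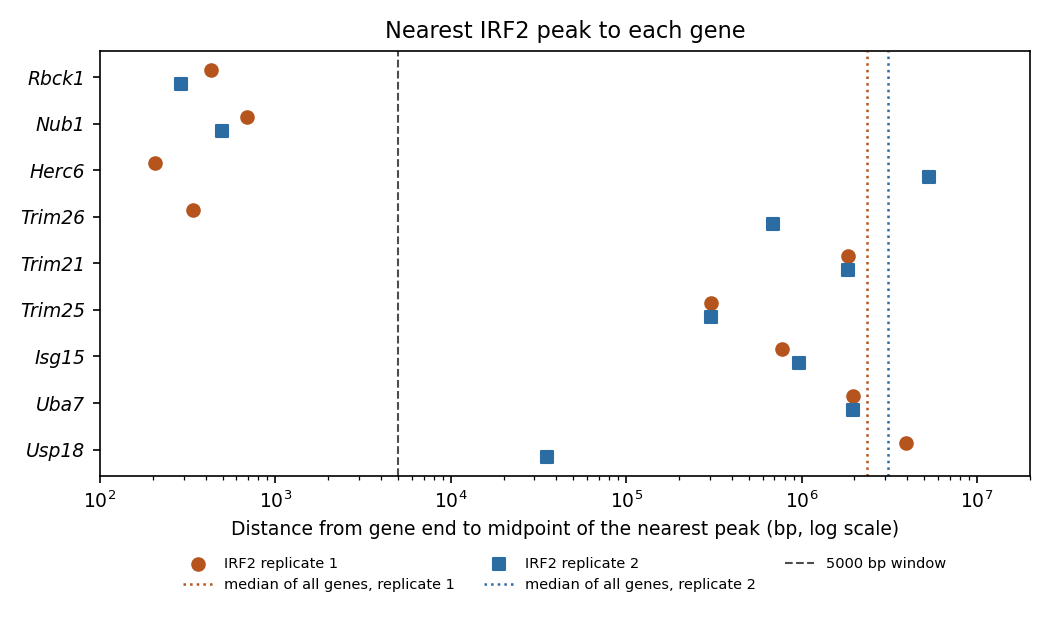
Distance in bp (log axis) from the nearer end of each gene to the midpoint of the nearest IRF2 peak of replicate 1 (circles) and replicate 2 (squares), with the 5000 bp window (dashed) and the median over all genes for each list (dotted). Points inside the window lie at 205 to 686 bp, and the next nearest is Usp18 in replicate 2 at 35.2 kb.

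The window left no borderline case. Inside it, the farthest midpoint lay 686 bp from a gene end in replicate 1 and 499 bp in replicate 2. Outside it, the nearest was 306 kb away in replicate 1, at Trim25, and 35.2 kb away in replicate 2, at Usp18. Over all genes the median distance to the nearest peak was 2.36 Mb in replicate 1 and 3.11 Mb in replicate 2, the latter over the 21631 genes on chromosomes with a peak.

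Rbck1 had the highest peak of the set in both libraries. The gene, which encodes the HOIL-1 subunit of the linear ubiquitin ligase, lies on the minus strand of chromosome 2 from 152316334 to 152332663, with 2 annotated starts. In replicate 1 its peak ran from 152331598 to 152332871 with a summit score of 88, rank 8 of 380. In replicate 2 the peak ran from 152331831 to 152332912 with a summit score of 31, rank 6 of 238 and tied with 1 other peak. The score is the deposited value of each summit, in a unit that is not stated, so only its rank within a list can be read.

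The Rbck1 peaks covered the start end of the gene in both libraries. They overlapped by 1041 bp, which is 81.7% of the replicate 1 peak and 96.2% of the replicate 2 peak. The midpoints lay 428 and 291 bp inside the gene. No other protein-coding gene end was nearer, the closest being that of Trib3 at 5190 bp from the replicate 1 midpoint. The consensus site shown above lies 20 to 12 bases before the second annotated start, inside both peaks. The replicate 1 summit stood 25 bp from the centre of that site and the replicate 2 summit 103 bp from it. Summits of the set lay on a grid of 16 bp, which limits how finely such gaps can be read.

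Nub1 was the other gene with a peak in both libraries. Nub1 encodes a protein that binds NEDD8 and directs it to the proteasome, and it lies on the plus strand of chromosome 5 from 24685815 to 24710378. Replicate 1 had a peak at 24686103 to 24686898 with a summit score of 74, rank 16 of 380. Replicate 2 had one at 24685926 to 24686701 with a summit score of 21, rank 21 of 238 in a tie of 8 peaks. Both ranks are high in their lists, and lower than those of Rbck1.

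Unlike that at Rbck1, the Nub1 peak lay wholly inside the gene. It began 288 bp after the annotated start in replicate 1 and 111 bp after it in replicate 2. The summits stood 489 and 457 bp after the start and 32 bp apart. The peaks overlapped by 599 bp, or 75.3% of the replicate 1 and 77.2% of the replicate 2 peak. The promoter window ends 49 bases after the start and shared no base with either peak. It held 0 consensus matches, and the sequence under the peak itself was not used here.

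**Figure D2:**
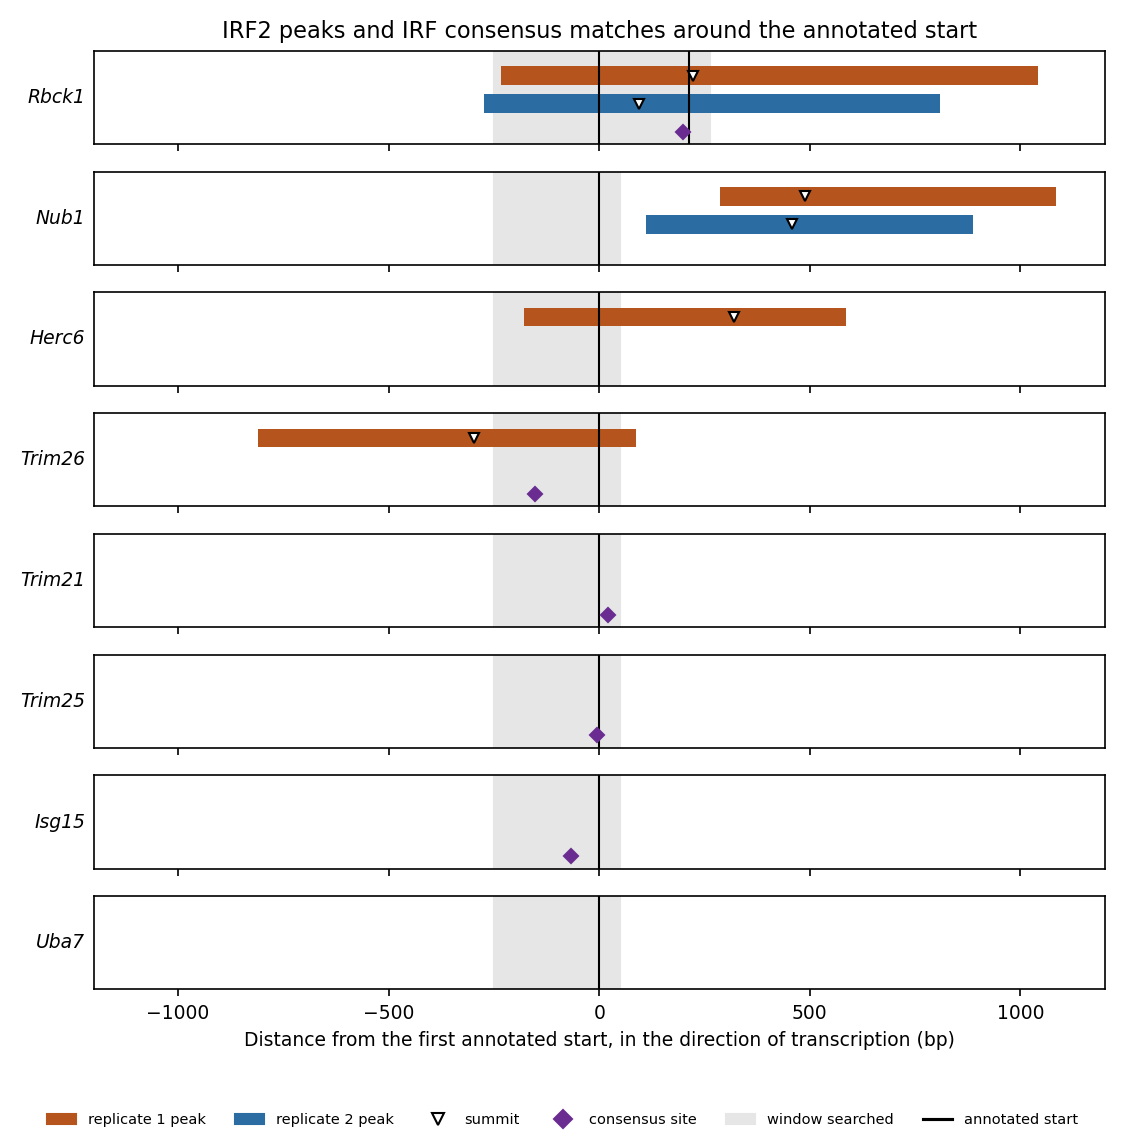
Peak intervals of replicate 1 (orange) and replicate 2 (blue) with their summits (triangles), consensus sites (diamonds), searched windows (grey) and annotated starts (black lines) around the first annotated start of 8 genes; the horizontal axis is distance in bp in the direction of transcription. Peaks stand at Rbck1 and Nub1 in both libraries and at Herc6 and Trim26 in replicate 1, while Trim21, Trim25 and Isg15 have a consensus site and no peak.

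Herc6 had a peak in replicate 1. It encodes the main ISG15 ligase of the mouse and lies on the plus strand of chromosome 6 from 57580992 to 57665136. The peak ran from 57580815 to 57581578 across the annotated start, with a summit 320 bp after the start and a score of 33, rank 93 of 380 in a tie of 5. In replicate 2 the nearest peak was 5.34 Mb away, 310 bp from an end of Hoxa11. The replicate 1 peak covered 227 of the 300 bases searched, and none of the 300 held the consensus. The rest of the peak, with its summit, lies beyond those 300 bases and was not searched.

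Trim26 also had a peak in replicate 1. It encodes a TRIM ligase in the MHC region of chromosome 17, on the plus strand from 36837123 to 36859398. The peak ran from 36836337 to 36837232, with its summit 298 bp before the annotated start and a score of 38, rank 71 of 380 in a tie of 6. The nearest replicate 2 peak was 691 kb away, 499 bp from an end of Gm10499. The replicate 1 peak covered all 300 bases searched. The repeated site lies 159 to 145 bases before the start, and the summit stood 146 bp from its centre, on the side away from the gene.

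The peaks at Herc6 and Trim26 scored lower in replicate 1 than those at Rbck1 and Nub1. To place these scores in the list, peaks of similar score were counted without the peaks at the set's own genes, as a description with limits taken from the scores of the set. Of 25 other replicate 1 peaks that scored from 33 to 38, as Herc6 and Trim26 did, 3 overlapped a replicate 2 peak. Of 15 others that scored 74 or more, as Nub1 and Rbck1 did, 15 did so. Over the whole replicate 1 list, 53 of 376 other peaks did so.

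**Figure D3:**
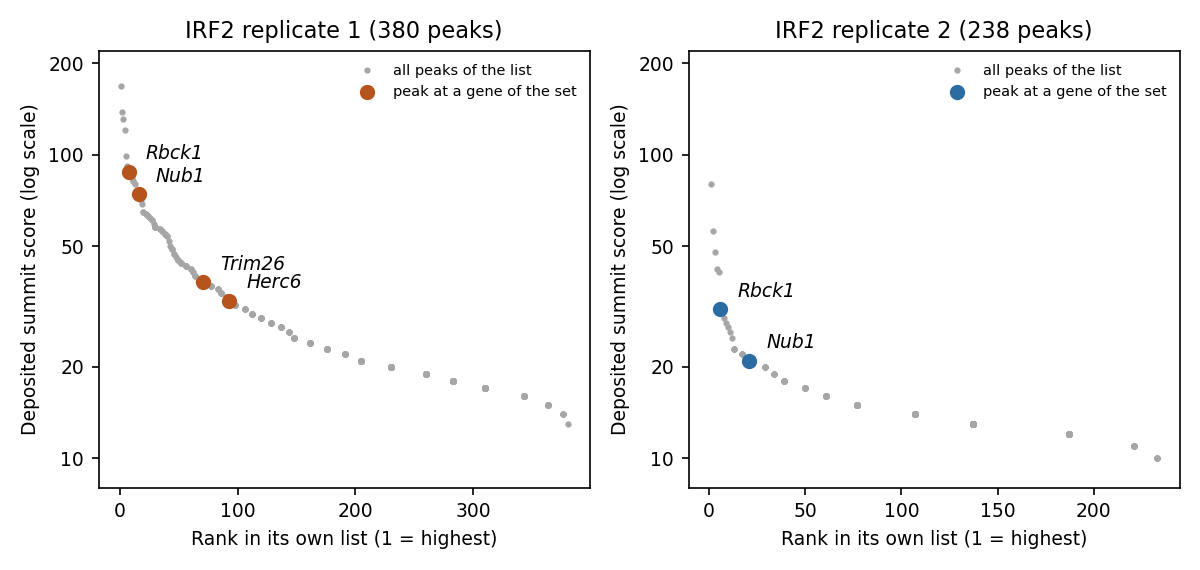
Deposited summit score (log axis, unit not stated) against rank for each peak of replicate 1 (left) and replicate 2 (right), with the peaks at genes of the set in colour. Rbck1 and Nub1 stand at ranks 8 and 16 of 380 and at ranks 6 and 21 of 238, and Trim26 and Herc6 at ranks 71 and 93 of the replicate 1 list.

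Shared regions were also ordered by their mean rank over both lists. Among those within 5000 bp of a gene end, the regions nearest in mean rank to that of Rbck1 (7) were at Parp12, an ADP-ribosyltransferase (3), and at the peptide-trimming gene Erap1 and the interferon-inducible gene Nmi (11.5 each). For Nub1 (18.5) they were at Tapbp, the gene of tapasin (13), and again at Erap1 and Nmi. Regions farther from gene ends came as close or closer. They were named after their values were seen. The region 6257 bp from Rnf225 had the same mean rank as Rbck1. Those nearest to Map4 and Bmp8b had 4 and 2.5. For Nub1, the regions nearest to Hes1 (17), Mlxip (12.5), Erbb4 (12) and Nxph1 (25) came closer than those at Erap1 and Nmi. The Hes1 region also came closer than that at Tapbp. The mean rank is taken over 2 libraries, and nothing about shared function follows from it.

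In the ISG15 pathway the single peak was that at Herc6 in replicate 1, and the modifier, its E1, its protease and the ligase gene Trim25 had none within 5000 bp in either library. Isg15 itself, the modifier, lies on chromosome 4 from 156199424 to 156200818. Its nearest peaks were 777 kb away in replicate 1 and 964 kb away in replicate 2, and other genes were nearer to them. Uba7, the ISG15 E1, lies on chromosome 9 from 107975567 to 107984056, and its nearest peaks were 1.97 Mb away in both libraries. Those peaks overlapped each other, ranked 2 of 380 and 6 of 238, and had an end of Map4 as the nearest gene end.

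Usp18, the protease that removes ISG15, was the gene without a call that had the closest peak. It lies on chromosome 6 from 121245906 to 121270917. The replicate 2 peak stood 35.2 kb from its low-coordinate end, with a score of 18, and its midpoint was 18 bp from an end of Tuba8, a tubulin gene. In replicate 1 the nearest peak was 3.96 Mb away, at Tapbpl.

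The remaining TRIM genes were far from peaks as well. Trim25, which ubiquitinates the viral RNA sensor RIG-I and also acts as an ISG15 ligase, lies on chromosome 11 from 88999403 to 89020294. Its nearest peaks, 306 kb away in both libraries, overlapped each other and were nearest to Msi2. Trim21, an antibody receptor of the cytosol, lies on chromosome 7 from 102557920 to 102565482. Its nearest peaks, 1.84 Mb away in both libraries, overlapped each other between Trim30c and Trim30a.

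Consensus matches occurred in promoters with and without a peak. Of the 9 genes, 8 had a promoter window, and 5 of those held GAAANNGAA, against 9.43% of the 17492 protein-coding genes with a window. Promoters of interferon-inducible genes are known for such elements, and the members were picked as such genes. A replicate 1 peak reached the windows of Rbck1, Trim26 and Herc6, of which the first pair held the consensus. It did not reach those of Isg15, Trim21, Trim25, Uba7 and Nub1, of which the first 3 held it.

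Among these sites Isg15 had the most repeats. Its 3 matches lie 78 to 58 bases before the start, and 16 of 17492 genes (0.0915%) had 3 or more matches in a window. Trim21 has its 2 matches 13 to 27 bases after the start, inside the transcribed part, and Trim26 has 2 as given above. In all, 133 genes (0.76%) had 2 or more. The single Trim25 match ends 1 base before the start. Uba7, Nub1 and Herc6 held 0 matches, and with 1 mismatch allowed in a form longer by 1 A, a setting chosen after seeing the data, Uba7 and Herc6 gained matches while 36.1% of all genes then had one.

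Other ubiquitin and ubiquitin-like genes were read from a wider list of 162 genes, the set included. Of these, 10 had a replicate 1 peak within 5000 bp (6.17%) and 4 a replicate 2 peak (2.47%). Without the 9 genes of the set, 6 of 153 (3.92%) had one in replicate 1 and 2 of 153 (1.31%) in replicate 2, against 0.795% and 0.804% of all genes. The list was drawn up with results of these data known, and neighbours can share a peak, so these counts are a description.

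Among the 6 linear ubiquitin genes, Rnf31, the catalytic partner of Rbck1, had a replicate 1 peak with a score of 39, 1019 bp from its end. That peak was nearer to Psme2, at 407 bp, a gene of the proteasome activator. The other 4, Sharpin, Otulin, Cyld and Spata2, had none that near in either list. Of the 15 NEDD8 genes, Nub1 was the only one with a peak within 5000 bp, in both libraries.

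Among 5 interferon-inducible RING ligase genes outside the TRIM family, 2 had a replicate 1 peak and 0 a replicate 2 peak. Dtx3l, which pairs with Parp9, had one 209 bp from its end with a score of 44, and Parp9 lay 348 bp from the same midpoint. Rnf213, a giant ligase that acts on microbes, had its nearest at 528 bp with a score of 33. Another replicate 1 peak, from 119392963 to 119393706 on chromosome 11 with a score of 28, also lay within 5000 bp of that end. Of 50 USP protease genes, Usp25 had a replicate 1 peak at 655 bp, with a score of 19 and rank 260 of 380. That is 2.0% of the USP genes, against 0.795% of all genes.

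The TRIM list had 69 genes, of which 3 had a replicate 1 peak (4.35%) and 2 a replicate 2 peak (2.9%). Over all genes the shares were 0.795% and 0.804%. Trim30a and Trim30c, members of a cluster of interferon-inducible TRIM genes, share 1 region between them, called in both libraries with scores of 57 and 15. Its replicate 1 midpoint lay 3923 bp from an end of Trim30c and 4250 bp from an end of Trim30a. Both lie outside a window of 1000 bp. With annotated starts in place of gene ends, the wider-list count fell to 9 in replicate 1 and to 3 in replicate 2. Rbck1 and Nub1 stayed in the replicate 2 count, so Trim30a and Trim30c do not both have an annotated start within 5000 bp of the region. The Trim30 genes are close paralogs, and how reads were divided among near-identical copies was not stated. The Trim30a promoter held 1 consensus match, which is also the longer interferon-stimulated response element. How far that match lies from the shared region was not measured. The response element was found in 3 TRIM promoters. The other genes, Trim30d and Trim34a, named after their values were seen, had gene ends 65239 and 142531 bp from the nearest replicate 1 peak. In promoter windows, 12 of 54 TRIM genes (22.2%) held the consensus, and 9 of 51 (17.6%) without Trim21, Trim25 and Trim26, against 9.43% of all genes with a window.

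The ubiquitin and E1 genes (0 of 6) and the FAT10 genes (0 of 2) had no peak in either library, and neither had the HERC genes other than Herc6 (0 of 4). Over all genes the shares were 0.795% in replicate 1 and 0.804% in replicate 2. Groups this small would mostly hold none at such shares, so these zeros say nothing about the families.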

How the data were processed

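The authors' deposited files are peak lists. The submitters' processing notes name BWA 0.7.12, MACS and the build mm10. The MACS version, its thresholds and the read depth are not stated in what was used here. Summits and intervals stand in separate tracks for every library, per the file headers. The deposited summit score is a whole number of unstated unit, used only within its own list. The replicate 2 deposit also holds a line-for-line copy of the replicate 1 list (380 peaks), counted once. Its track names number the libraries the other way, with its own called rep1 and the copy called rep2.

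Genes came from the RefSeq table of GRCm38.p6, the assembly of mm10. Distance means the gap between the midpoint of a peak and the nearer gene end. An overlap of 1 bp made a shared region, of which there were 53. All 162 symbols of the wider list matched. RefSeq promoter windows covered 17492 genes and 8 of 9 members. No genome was used. The members, lists and motif were chosen with earlier results of these data known. Named genes were the members, wider-list genes with a peak, 3 genes nearest in mean rank to each shared member (regions within 5000 bp of a gene end), and genes nearer to a member's peak. No test was run. Distance, overlap and motif code was tested on simulated data. Python 3.11.15, numpy 2.4.6 and pandas 2.3.3 were used. Alternatives were other windows, distance measures, overlaps, motif forms, the higher-scored 50% of each list and either library alone.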

Additional observations from a re-analysis of the deposited data

How the results depend on the processing

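The counts for the 9 genes (4 in replicate 1, 2 in replicate 2 and 2 at shared regions) stayed the same with windows of 1000 and 25000 bp, with the higher-scored 50% of each list, with distances from peak edges, from summits or to annotated starts, and, for shared regions, with a reciprocal overlap of 50% or midpoints within 500 bp. Distances to annotated starts covered 8 of the 9 genes, as no annotated start was available for Usp18. Given the distances and ranks above, neither these windows nor the 50% limit could have changed the counts. With 1 library left out, the count at shared regions ran from 2 to 4, the 4 being replicate 1 by itself. In the wider list the replicate 2 count fell from 4 to 2 with a window of 1000 bp, since the region between Trim30a and Trim30c lies farther out; the replicate 1 count ran from 7 to 13 around its value of 10. Of the 5 promoters with the consensus, 4 held it followed by 1 more A and 0 held the longer element that ends in A, C and T. No paired analysis was possible because both immunoprecipitates belong to 1 group and input peaks were not used here. The search of peak intervals, which needs a genome sequence, could not be made. Depth is unknown, so what it limits cannot be given as a number.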

Other observations

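Promoters with many consensus matches were read across all genes with a window, a count chosen after the Isg15 site had been seen. A replicate 1 peak reached the window of 57 of 17492 genes (0.326%), of 24 of 1650 genes with at least 1 match (1.45%), and of 8 of 133 genes with at least 2 (6.02%). For replicate 2 the shares were 0.417%, 0.727% and 2.26%. Of the 16 genes with 3 or more matches, 0 had a peak of either library over a window. With only 16 genes, 0 cannot be told apart from the shares at 2 or more matches. These genes are named for their sites only. They include Isg15 and the interferon-induced genes Ifit1, Ifit1bl2, Ifit3 and Ifit3b, which form a cluster and are close paralogs. Cybb, an oxidase subunit of phagocytes, is also among them. The rest, which is the larger part, are Dpm1, Gm3173, Gm3512, Mocs3, Pcp4l1, Rbms3, Rwdd4a, Trappc11, Ugt2b1 and Washc3. No difference between the shares was tested.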
